A study of Mus musculus with 6 samples.

Results

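Carbonic anhydrases are zinc enzymes, and the 10 mouse genes described here are Car2, Car3, Car4, Car5b, Car6, Car8, Car9, Car12, Car13 and Car14. They were measured in C3H10T1/2 adipocytes, which are cells of a mouse embryonic mesenchymal line turned into fat cells in culture, at 9 days of differentiation. A gene was read from the probe set whose annotation gives its symbol alone, and the probe set with the highest mean over all arrays was taken where a gene had several. By that rule 9 of the 10 members had a probe set, among 21996 genes on the array. Car14 had none of its own, because the 1 probe set that names it also names Aph1a. The members were chosen with the difference between the hairpin groups in view, so their values on that contrast are a description and carry no test.

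In the Zc3h10 shRNA group, adenovirus delivered a short hairpin RNA against Zc3h10, the gene of a zinc finger RNA-binding protein. In the scramble group it delivered a hairpin of scrambled sequence. In both groups the U6 promoter drove the hairpin, the multiplicity of infection was 50 and the exposure lasted 72 h. Each group had 3 biological replicates, each on 1 Affymetrix array of total RNA, and all 6 came from the same cell line. Both groups therefore carry virus, and no uninfected culture was analysed here.

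Carbonic anhydrases interconvert carbon dioxide and water with bicarbonate and a proton. Isoforms differ in where they sit: in the cytosol, in mitochondria, on the cell surface or outside the cell, and a few have lost the catalytic zinc site. In fat cells the cytosolic isoform Car3 is known as an abundant protein, and mitochondrial and cytosolic isoforms are known to provide bicarbonate for the carboxylases of fatty acid synthesis. Car9 and Car12 are best known from hypoxic tumour cells.

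Median intensity over all probe sets was 15.7 to 16.1 on the Zc3h10 shRNA arrays and 15.6 to 15.7 on the scramble arrays. Zc3h10 itself had intensities of 25.2, 30.2 and 22.9 on the Zc3h10 shRNA arrays, against 25.9, 39.0 and 35.3 on the scramble arrays. The groups overlapped, its log2 difference was -0.34 ± 0.17 (SE, n = 3 each), and the two-sided p of an exact permutation test was 0.2 (3 against 3 arrays cannot go below 0.1). The hairpin's effect on its own target was thus not resolved on these arrays. Over the whole table, 3238 of 33079 probe sets (9.79%) had an adjusted p under 0.05. Olfactory and vomeronasal receptor genes, which are best known from sensory neurons, served as a gauge of background. Of 1379 such genes, 95% had a mean log2 intensity of 1.90 to 4.37, and the upper end corresponds to an intensity of 20.7. Every Zc3h10 value lay above that limit, but at 22.9 to 39.0 its signal was near background, which limits what its probe set can resolve.

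Of the 9 measured carbonic anhydrases, Car2, Car3, Car4 and Car5b had lower intensity with Zc3h10 shRNA, with no overlap between the groups. Car9, Car12, Car13, Car6 and Car8 overlapped between the groups. The 4 non-overlapping members are the 4 with an adjusted p under 0.05 in the fit. No member was higher without overlap. Among all 21996 genes, 15.2% were lower without overlap and 16.7% higher without overlap, and 6.60% passed the fit as lower and 5.51% as higher. Since the set was selected on this contrast, nothing is read from those counts. The median log2 difference of the 9 was -0.27, against 0.01 over all genes. The difference was below 0 for 7 of the 9 members and for 47.1% of all genes.

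**Figure D1:**
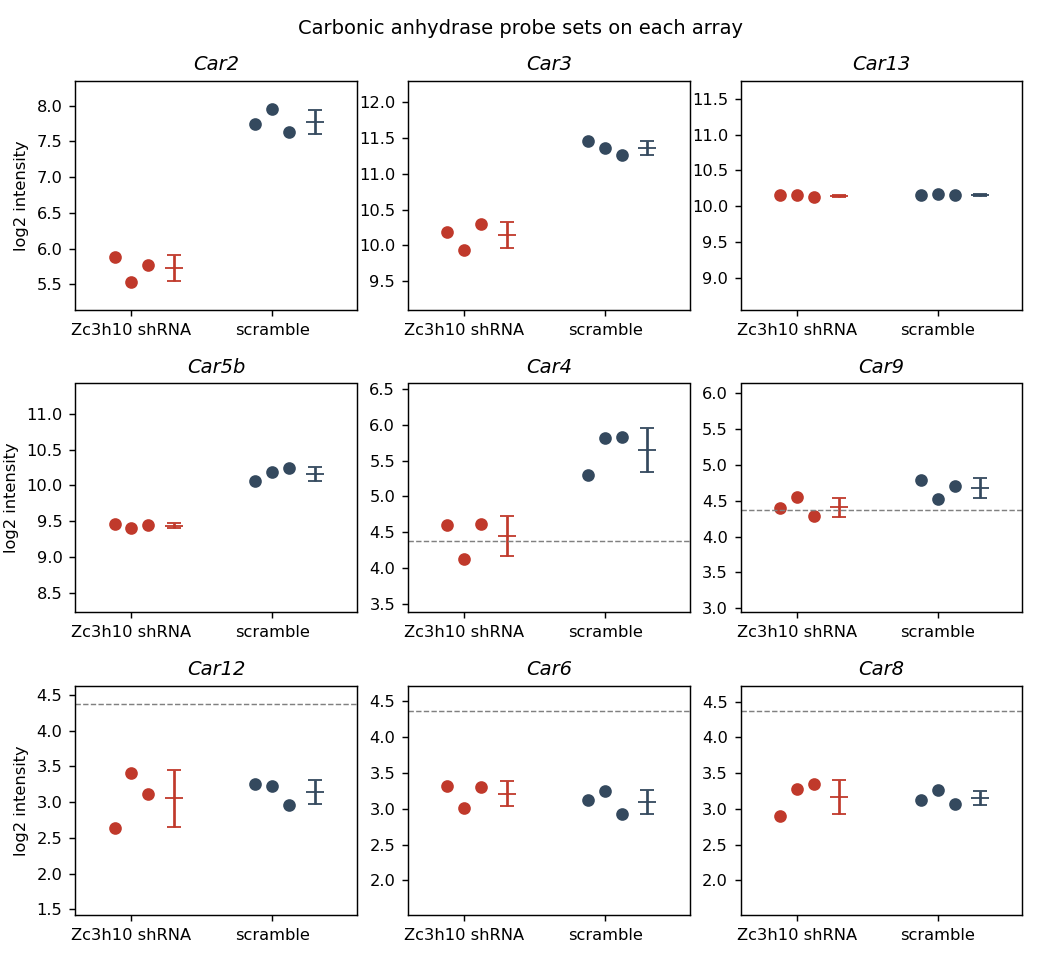
Log2 intensity of 9 carbonic anhydrase genes on each array, with Zc3h10 shRNA on the left and scramble on the right of each panel. Points are arrays, bars are mean ± SD (n = 3), each panel spans the same number of log2 units, and the dashed line at 4.37 is the upper end of the receptor range. Car2, Car3, Car5b and Car4 sit lower in Zc3h10 shRNA on every array, Car13 is level, and Car12, Car6 and Car8 lie under the line.

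Promoter sequence is given for Car5b and Car4, the members with lower, non-overlapping intensity for which a window was matched, and for Car9, the isoform best known as a hypoxia target. RefSeq windows of build GRCm38.p6 were matched for 6 of the 10 members. Each window runs from 250 bases before the start to 50 bases after it, 5′ to 3′ on the gene's strand. Capitals mark matches on either strand to ACGTG, the core of hypoxia response elements, which is also part of the E-box CACGTG, to the GC box GGGCGG, to the TATA box TATAAA, to the nuclear receptor letters AGGTCA or to the C/EBP palindrome TTGCGCAA.
Car5b promoter, chrX:164027961-164028260, minus strand: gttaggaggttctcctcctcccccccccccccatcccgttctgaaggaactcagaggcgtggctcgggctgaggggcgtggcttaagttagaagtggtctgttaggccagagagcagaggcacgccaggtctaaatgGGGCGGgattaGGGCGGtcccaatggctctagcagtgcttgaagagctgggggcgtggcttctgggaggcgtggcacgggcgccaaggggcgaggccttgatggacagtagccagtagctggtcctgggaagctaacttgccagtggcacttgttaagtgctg
Car4 promoter, chr11:84957504-84957803, plus strand: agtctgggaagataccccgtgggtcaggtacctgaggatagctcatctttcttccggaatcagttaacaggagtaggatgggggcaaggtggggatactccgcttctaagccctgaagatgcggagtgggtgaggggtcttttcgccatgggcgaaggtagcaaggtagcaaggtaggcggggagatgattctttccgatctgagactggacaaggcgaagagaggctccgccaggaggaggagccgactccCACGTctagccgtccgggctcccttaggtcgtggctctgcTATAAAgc
Car9 promoter, chr4:43506776-43507075, plus strand: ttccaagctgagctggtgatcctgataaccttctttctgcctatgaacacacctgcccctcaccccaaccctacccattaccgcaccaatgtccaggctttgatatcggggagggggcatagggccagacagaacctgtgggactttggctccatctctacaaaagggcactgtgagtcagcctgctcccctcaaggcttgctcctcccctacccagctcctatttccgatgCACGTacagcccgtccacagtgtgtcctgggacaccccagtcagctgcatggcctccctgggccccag
The Car5b window held GGGCGG at 2 places, starting at positions -113 and -102 from the start. The Car4 window held ACGTG on the opposite strand at position 3 and TATAAA at position 43, both just after the start. The Car9 window held ACGTG on the opposite strand at position -18, the only match in it. Over 32851 RefSeq windows of the same length, 19.6% held ACGTG, 35.7% held GGGCGG, 13.6% held TATAAA, 16.3% held AGGTCA and 0.183% held TTGCGCAA. A match describes letters in the window and says nothing of binding in these cells.

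Car2 is the widely expressed cytosolic isoform of very high activity. Its intensity was 59.3, 46.4 and 54.7 with Zc3h10 shRNA, against 213, 248 and 198 with scramble. Every Zc3h10 shRNA array lay far below every scramble array, and the arrays of a group varied little beside that gap. The log2 difference was -2.04 ± 0.13 (SE, n = 3 each; 95% interval -2.34 to -1.75), an intensity 4.11-fold lower. Among all 21996 genes, this difference ranked 13 from the lowest. Leaving out any 1 array kept it between -2.12 and -1.94. Adding 32 to every intensity before the logarithm, which damps low signals, gave -1.56.

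Car3 is the cytosolic isoform known for low hydratase activity and high abundance in fat and muscle. It had 1161, 982 and 1258 with Zc3h10 shRNA, against 2809, 2630 and 2462 with scramble. The groups were well apart, with the highest Zc3h10 shRNA array under the lowest scramble array. Mean intensity was 1134 ± 140 with Zc3h10 shRNA and 2634 ± 174 with scramble (SD, n = 3 each). The log2 difference was -1.22 ± 0.12 (SE; 95% interval -1.49 to -0.95), and it ranked 137 from the lowest of all genes.

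Car13, another cytosolic isoform, was level between the groups. Its intensity was 1138, 1142 and 1123 with Zc3h10 shRNA, against 1137, 1151 and 1142 with scramble. The 6 arrays were almost the same, well above the receptor range. The log2 difference was -0.01 ± 0.08 (SE; 95% interval -0.20 to 0.17). Scaling the arrays to equal quantiles turned it to 0.05, and the values without any 1 array lay at or below 0, down to -0.02.

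Car5b encodes a mitochondrial isoform, expressed more widely than the liver isoform Car5a. It had 707, 675 and 698 with Zc3h10 shRNA, against 1066, 1161 and 1216 with scramble. The Zc3h10 shRNA arrays were tightly grouped and all lay under the scramble arrays. The log2 difference was -0.72 ± 0.09 (SE, n = 3 each; 95% interval -0.93 to -0.52), which leaves 60.5% of the scramble level. The probe set of Car5a is shared with BC048644, so the liver isoform was not used.

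Car4 encodes a surface isoform held by a glycosylphosphatidylinositol anchor. Its intensity was 24.3, 17.5 and 24.4 with Zc3h10 shRNA, against 39.3, 56.3 and 56.7 with scramble. The groups did not overlap, but the Zc3h10 shRNA values lay close to the receptor limit of 20.7 and 1 of the 3 was under it. The log2 difference was -1.20 ± 0.19 (SE, n = 3 each; 95% interval -1.63 to -0.77), with leave-one-out values from -1.37 to -1.04. With 32 added before the logarithm it was -0.61.

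Car9, Car12 and Car14 are transmembrane isoforms whose catalytic domain faces outward. Car9 had 21.1, 23.4 and 19.5 with Zc3h10 shRNA, against 27.8, 23.1 and 26.2 with scramble. The groups overlapped at replicate 2 of each, and values lay near the receptor limit of 20.7, with Zc3h10 shRNA replicate 3 under it. The log2 difference was -0.27 ± 0.11 (SE; 95% interval -0.52 to -0.01), and -0.11 with 32 added before the logarithm. A second Car9 probe set had 13.7, 9.60 and 9.40 with Zc3h10 shRNA, against 29.4, 15.7 and 16.6 with scramble. Its groups did not overlap, yet both group means were under the receptor limit and 1 array was above it, so no fold is given for it. Averaging both probe sets gave a log2 difference of -0.57. The probe sets of Car9 therefore differ in whether the groups separate.

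Car12 had 6.20, 10.7 and 8.64 with Zc3h10 shRNA, against 9.51, 9.37 and 7.75 with scramble. These arrays overlapped and lay in the receptor range in both groups, with a log2 difference of -0.09 ± 0.19 (SE; 95% interval -0.53 to 0.35). Car6, the isoform secreted into saliva, had 9.93, 8.04 and 9.90 with Zc3h10 shRNA, against 8.70, 9.49 and 7.57 with scramble. It too was within the receptor range, at 0.11 ± 0.13 (SE; 95% interval -0.18 to 0.40). Car8 encodes a protein that lacks catalytic activity and binds the type 1 inositol trisphosphate receptor. Its intensity was 7.44, 9.66 and 10.1 with Zc3h10 shRNA, against 8.75, 9.63 and 8.37 with scramble. Its log2 difference of 0.02 ± 0.13 (SE; 95% interval -0.29 to 0.32) changed sign when single arrays were left out, between -0.07 and 0.15. For Car12, Car6 and Car8, a change could not be resolved from signal at background.

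**Figure D2:**
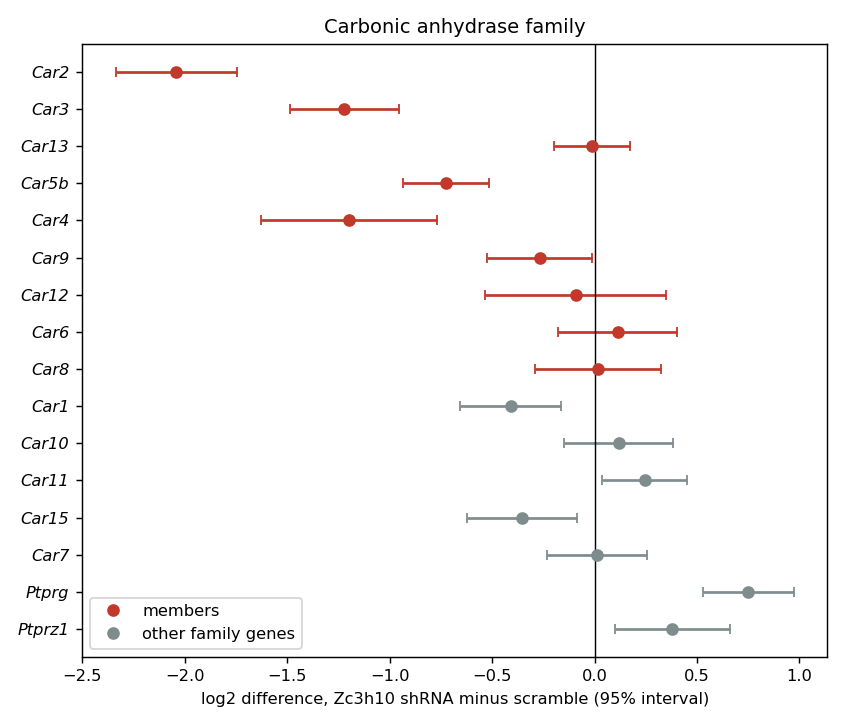
Log2 difference, Zc3h10 shRNA minus scramble, for 9 member genes and 7 other genes of the family, with 95% intervals from the fit over all probe sets (n = 3 each). Car2 at -2.04 lies farthest below 0 and Ptprg at 0.75 farthest above it.

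Car13, Car1, Car3 and Car2 lie next to each other on chromosome 3 in the RefSeq annotation of GRCm38.p6, in that order. Their log2 differences along it were -0.01 for Car13, -0.41 for Car1, -1.22 for Car3 and -2.04 for Car2. Differences thus ran further below 0 from Car13 towards Car2, a description of 4 genes with no test of the order. Car1, a cytosolic isoform best known from red blood cells and not a member, had 39.4, 48.5 and 46.0 with Zc3h10 shRNA, against 58.3, 62.6 and 56.2 with scramble. Its groups did not overlap, and the log2 difference of -0.41 ± 0.11 (SE) missed the threshold at an adjusted p of 0.0515. Over 16 alternative settings that p ranged from 0.0191 to 0.167 and passed under 6.

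Of the 5 neighbouring genes with a probe set of their own, 1 passed in the fit. On the Car13 side, Rbis had a log2 difference of -0.17 (adjusted p = 0.551) and E2f5, a cell cycle transcription factor, 0.01 (adjusted p = 0.964). Lrrcc1, whose product sits at centrosomes, was higher by 0.41 ± 0.11 (SE; adjusted p = 0.0470). That call was lost under 8 of 16 alternatives, with adjusted p up to 0.157, including without each Zc3h10 shRNA array and without scramble replicate 2 or 3. On the Car2 side, Gm9733 was at 0.01 (adjusted p = 0.976) and Sirpb1a at 0.15 (adjusted p = 0.364), both in the receptor range. Sirpb1b had no probe set of its own.

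**Figure D3:**
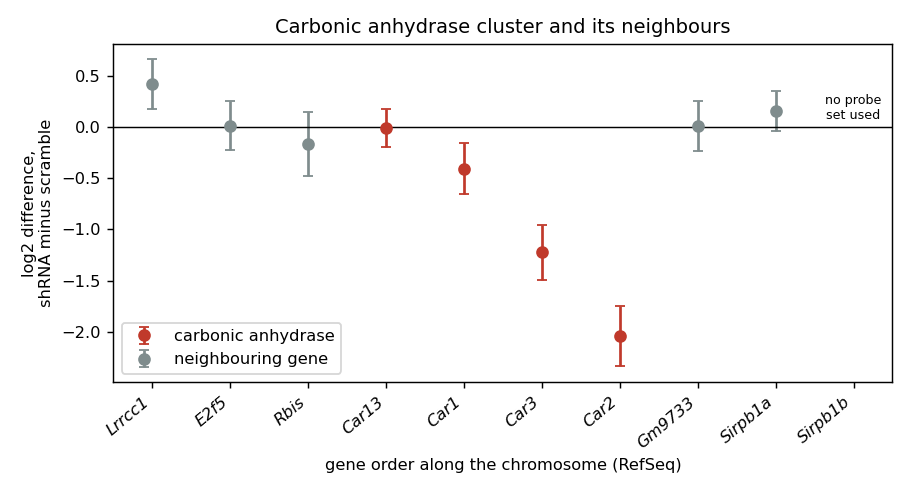
Log2 difference, Zc3h10 shRNA minus scramble, for genes in their order on chromosome 3, evenly spaced and not to scale, with 95% intervals (n = 3 each). Car13 is at -0.01 and Car2 at -2.04, with Gm9733 beside Car2 at 0.01.

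The rest of the family was read from the same fit. These genes are what remained once the members were chosen with this contrast in view, so their counts are a description. Beside every list count, the share of all genes is 6.60% passing as lower and 5.51% as higher. Of 7 other carbonic anhydrase and carbonic anhydrase-like genes measured, 1 was higher, none was lower and 6 did not pass, with a median log2 difference of 0.12. Ptprg encodes a receptor tyrosine phosphatase whose outer part is a carbonic anhydrase-like domain. It had 298, 276 and 301 with Zc3h10 shRNA, against 177, 186 and 159 with scramble. All Zc3h10 shRNA arrays lay above all scramble arrays, with a log2 difference of 0.75 ± 0.10 (SE, n = 3 each; adjusted p = 0.00273). It passed under all 16 alternatives, including the mean of probe sets, which in effect repeats the main fit outside the members. Its relative Ptprz1 was within the receptor range at 0.38 ± 0.12 (SE; adjusted p = 0.102).

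Car15, another anchored surface isoform, had a log2 difference of -0.35 ± 0.12 (SE; adjusted p = 0.114). The catalytically inactive Car11 was at 0.24 ± 0.09 (SE; adjusted p = 0.153) and the related Car10 at 0.12 (adjusted p = 0.644). The cytosolic Car7, known from brain, was at 0.01 (adjusted p = 0.966). None of these 4 passed in limma's fit, and of the 4 Car15 and Car11 had an unadjusted p under 0.05, at 0.0166 and 0.0262.

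Bicarbonate made by carbonic anhydrases is the carbon source of biotin-dependent carboxylases and of carbamoyl phosphate synthesis. These enzymes and Hlcs, which attaches biotin to the carboxylases, made a list of 10 genes, of which 7 fell, none rose and 3 did not pass, with a median log2 difference of -0.69. Acacb, the acetyl-CoA carboxylase that controls fatty acid entry into mitochondria, had 55.2, 47.0 and 52.6 with Zc3h10 shRNA, against 114, 153 and 138 with scramble. Its log2 difference was -1.38 ± 0.13 (SE; adjusted p = 0.000882). Acaca, the cytosolic acetyl-CoA carboxylase of fatty acid synthesis, fell by 0.88 on the log2 scale (SE 0.09; adjusted p = 0.00140).

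Mccc2, a subunit of the leucine-degrading methylcrotonyl-CoA carboxylase, had 215, 209 and 210 with Zc3h10 shRNA, against 454, 476 and 471 with scramble. The arrays of each group lay very close together, and the log2 difference was -1.14 ± 0.08 (SE; adjusted p = 0.000658). Pcca, a subunit of propionyl-CoA carboxylase, fell by 0.81 on the log2 scale (SE 0.10; adjusted p = 0.00221). The partner subunits also fell, with log2 differences of -0.69 each for Mccc1 (adjusted p = 0.00379) and Pccb (adjusted p = 0.00285).

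Pcx, pyruvate carboxylase, is the mitochondrial enzyme that Car5 isoforms are known to supply. It had 1140, 1218 and 1206 with Zc3h10 shRNA, against 1699, 1858 and 1894 with scramble, a log2 difference of -0.61 ± 0.09 (SE; adjusted p = 0.00473). Hlcs was at 0.44 ± 0.13 (SE) and did not pass (adjusted p = 0.0765). Cad, of pyrimidine synthesis, was at 0.11 (adjusted p = 0.513), and Cps1, of the urea cycle, was at -0.01 (adjusted p = 0.985) and at background. Each of the 7 that fell passed under all 16 alternatives.

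Bicarbonate transporters carry the ion across membranes and were mixed. Of 16 measured, 2 rose, 1 fell and 13 did not pass, with a median log2 difference of 0.07, and 8 of the 16 lay in the receptor range in both groups. Among all genes 5.51% rose and 6.60% fell, so nothing is read from counts this small. Slc26a7, an anion exchanger, had 152, 114 and 151 with Zc3h10 shRNA, against 79.9, 66.4 and 73.8 with scramble. The groups were apart, and the log2 difference was 0.91 ± 0.14 (SE; adjusted p = 0.00505). Slc4a8, a sodium-driven chloride and bicarbonate exchanger, rose by 0.56 on the log2 scale (SE 0.10; adjusted p = 0.0109). Its intensity was 26.0, 25.6 and 29.3 with Zc3h10 shRNA, against 19.1, 16.8 and 18.9 with scramble. The scramble arrays thus lay under the receptor limit of 20.7, and signal near background limits the size of this rise. Slc26a6, an anion exchanger known to interact with Car2, fell by 0.40 on the log2 scale (SE 0.09; adjusted p = 0.0290), a call lost without any 1 of the 6 arrays, where adjusted p reached up to 0.103.

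Among 13 measured genes of proton and lactate export, 1 fell, none rose and 12 did not pass, where 6.60% of all genes fell. The 1 that fell was Slc16a1, the monocarboxylate transporter of lactate and protons, with a log2 difference of -1.28 ± 0.10 (SE; adjusted p = 0.000658). Its chaperone Bsg was at -0.12 (adjusted p = 0.479). The list's median of -0.06 was near that of all genes.

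Car9 is a standard marker of hypoxia-inducible factor activity, so the other genes of that pathway were listed. Of 29 measured, 12 fell, 1 rose and 16 did not pass, with a median log2 difference of -0.27. Pdk1, which restrains pyruvate entry into mitochondria, was at -1.55 ± 0.17 (SE; adjusted p = 0.00146) and Bnip3, a mitophagy receptor, at -0.99 ± 0.10 (SE; adjusted p = 0.00125). Vegfa, the vascular growth factor, had 202, 214 and 209 with Zc3h10 shRNA, against 307, 328 and 307 with scramble, a log2 difference of -0.59 ± 0.08 (SE; adjusted p = 0.00427). Adm, the peptide hormone adrenomedullin, went the other way. It had 440, 497 and 431 with Zc3h10 shRNA, against 176, 200 and 174 with scramble, a log2 difference of 1.31 ± 0.10 (SE; adjusted p = 0.000660). The factor genes themselves did not pass, with Hif1a at -0.15 (adjusted p = 0.423) and Epas1 at -0.03 (adjusted p = 0.873). The count that fell was 8 with the ordinary t statistic and 9 to 11 without 1 array. Of the 12, Pfkfb3 was lost under 7 of 16 alternatives, Pgk1 under 6, P4ha1 under 4, and Ndrg1 and Bhlhe40 under 1 each.

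Inositol trisphosphate receptors are the calcium channels that Car8 is known to bind. Itpr3 had 90.6, 85.8 and 77.0 with Zc3h10 shRNA, against 60.8, 59.1 and 63.0 with scramble. It was higher by 0.47 ± 0.10 on the log2 scale (SE; adjusted p = 0.0192). The call held without Zc3h10 shRNA replicate 3 and was lost without any other single array, where adjusted p reached up to 0.0766. Itpr2 was at 0.01 (adjusted p = 0.969), and Itpr1, the Car8 partner, had no probe set of its own.

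**Figure D4:**
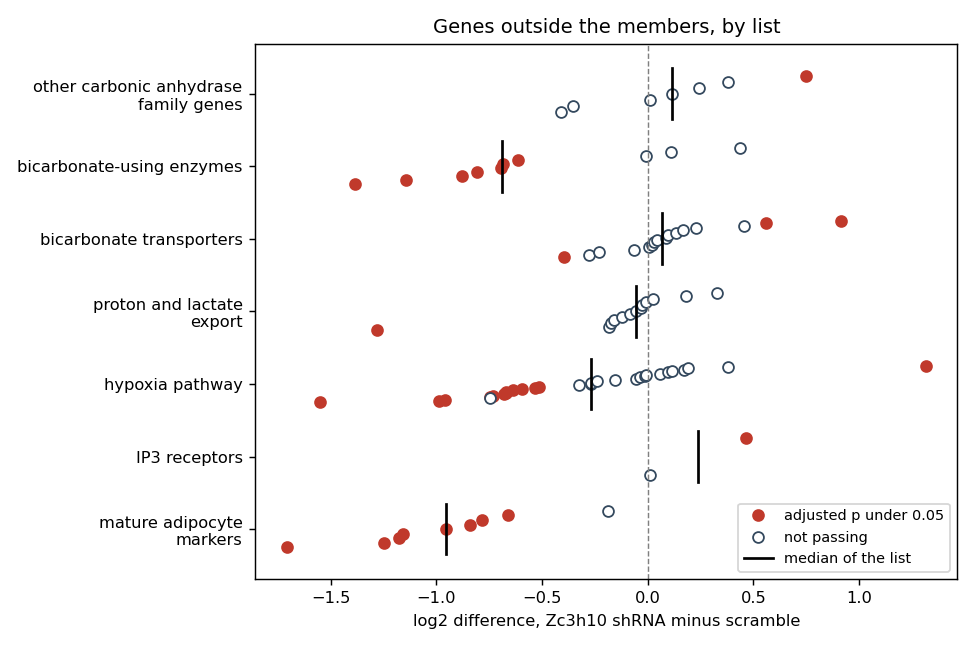
Log2 difference, Zc3h10 shRNA minus scramble, for single genes of 7 lists, with filled points for an adjusted p under 0.05, open points for the rest and a black line at each list's median. The bicarbonate-using enzymes, plotted with Hlcs, have a median of -0.69 and the mature adipocyte markers of -0.96, while bicarbonate transporters centre on 0.07.

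Mature adipocyte markers were mostly lower with Zc3h10 shRNA. Of 9 mature adipocyte markers measured, 8 fell and none rose, with a median log2 difference of -0.96. Their summed intensity was 9976 to 10957 on the Zc3h10 shRNA arrays and 18332 to 20313 on the scramble arrays. Fabp4, the fatty acid carrier, was at -0.66 ± 0.09 (SE; adjusted p = 0.00431). Lpl, lipoprotein lipase, was at -1.17 ± 0.11 (SE; adjusted p = 0.000893), and Retn, the secreted protein resistin, at -1.25 ± 0.12 (SE; adjusted p = 0.00100). Both groups thus expressed adipocyte genes well above background, as the label says, and Lep was in the receptor range in both. In RNA of a whole culture, fewer adipocytes and less RNA per adipocyte cannot be told apart. The part of adipocyte content in the values of Car2, Car3, Car4, Car5b and the carboxylases was not tested.

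Markers of other cell types were listed too. Of 8 progenitor and fibroblast markers, 1 fell (Pdgfra, -0.66, adjusted p = 0.00551) and 1 rose (Pdgfrb, 0.75, adjusted p = 0.00722), with sums of 2993 to 3034 with Zc3h10 shRNA and 3020 to 3475 with scramble. Of 6 osteoblast markers, 3 fell (Ibsp, Alpl and Bglap) and 1 rose (Dmp1), with sums of 1277 to 1488 with Zc3h10 shRNA and 1667 to 1845 with scramble. Most of each sum was Phex, which did not pass (adjusted p = 0.0741). Phex had 1358, 1156 and 1224 with Zc3h10 shRNA, against 1660, 1473 and 1611 with scramble. The sums therefore say little of the markers that passed. Bglap lay in the receptor range in both groups. Dmp1 had 17.8, 14.1 and 17.1 with scramble, all under the receptor limit of 20.7. Ibsp had 27.7, 15.7 and 20.3 with Zc3h10 shRNA, so replicates 2 and 3 lay under that limit. Bglap and Alpl were each lost under 4 of 16 alternatives, the ordinary t statistic and leaving out scramble replicate 3 among them, where 1 osteoblast marker fell. Other losses were without Zc3h10 shRNA replicate 2 or scramble replicate 2 for Alpl, and without Zc3h10 shRNA replicate 3 or scramble replicate 1 for Bglap. Car2 is also an osteoclast enzyme, and of 8 macrophage and osteoclast markers 6 lay in the receptor range, Ctsk, Calcr and Ptprc among them. The 1 that fell was Acp5, tartrate-resistant acid phosphatase, at -1.65 ± 0.15 (SE; adjusted p = 0.000893). Its mean intensity was 17.9 with Zc3h10 shRNA, under the receptor limit of 20.7, and 55.7 with scramble. Sums of the 8 macrophage and osteoclast markers, Acp5 included, were 115 to 121 with Zc3h10 shRNA and 154 to 170 with scramble.

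None of 6 chondrocyte markers and none of 7 skeletal muscle markers, the other main tissue of Car3, passed in limma's fit, and none had an unadjusted p under 0.05. Of these, 3 chondrocyte and 5 muscle markers lay under the receptor limit in both groups, where a change could not be resolved from background. Sums for chondrocyte markers were 872 to 930 with Zc3h10 shRNA and 839 to 1018 with scramble, and for muscle markers 142 to 180 with Zc3h10 shRNA and 160 to 164 with scramble. The only erythroid marker measured, Klf1, was at background in both groups. The part of these cell types in the carbonic anhydrase values was not tested.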

How the data were processed

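Total RNA of 3 Zc3h10 shRNA and 3 scramble cultures was hybridised to 1-colour Affymetrix arrays. The deposited values were linear probe-set intensities, which the authors produced with Affymetrix Expression Console and Partek 6.6, per the submitters' processing notes. Background correction and scaling are not stated in the labels or headers, and the files hold no detection calls. Values were taken as log2 without further scaling and fitted with limma 3.58.1 (lmFit and eBayes, R 4.3.3) over all 33079 probe sets, with Benjamini-Hochberg adjustment and a threshold of 0.05. The fit compared the groups without a replicate term. Intervals are 95%, and the number of arrays limits the precision.

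Of the probe sets, 23043 have 1 symbol, 1740 several and 8296 none. A gene is its highest-mean single-symbol probe set. Intensities of different probe sets are not compared. Promoters and gene order are from RefSeq. Named genes were all members, Zc3h10, the rest of the family, the neighbours of the cluster and all inositol trisphosphate receptors. Up to 4 passing genes per list were named by p. Up to 3 markers per list were planned by level, but this was not kept throughout. Cidec and Dcn, of high level, were not described, while passing markers of low level such as Bglap and Dmp1 were. Further genes were named after their values were seen. The members and lists were chosen with earlier results of these data known. The fit was tested on simulated data. Alternatives were other scalings, an offset, filters on low values, other variance models, the mean of all probe sets of a gene, a replicate block, and leaving out each array. The mean of probe sets was taken for members only, so for other genes that setting in effect repeats the main fit.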

Additional observations from a re-analysis of the deposited data

How the results depend on the processing

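The number of members with an adjusted p under 0.05 was 4, a description since the members were chosen on this contrast. With the ordinary t statistic it was 3, as Car4 did not pass. The differences of Car8, Car12 and Car13, which did not pass, changed sign under some alternatives. Genes of the family, bicarbonate, proton, hypoxia and receptor lists that passed numbered 26, and 21 to 35 under the alternatives. Probe sets that passed numbered 3238, against 1972 with the ordinary t statistic and 1807 (without scramble replicate 2) to 2578 when 1 array was left out, and against 4492 with the intensity trend, 4457 with the offset and 4454 with the median filter. With the ordinary t statistic, bicarbonate transporters gave 2 lower and 1 higher and inositol trisphosphate receptors 0 higher. Other family genes gave 1 lower with median scaling, loess scaling, the intensity trend and the lower-quartile filter, 2 lower with the median filter, and 1 lower and 2 higher with the offset. Bicarbonate transporters gave 2 lower with the offset or the median filter and 0 lower whichever array was left out. Carboxylases gave 1 higher with the median filter or the trend. Hypoxia genes gave 2 higher with quantile scaling, the offset, both filters and the trend, and 1 to 2 without 1 array. Receptors gave 0 to 1 higher without 1 array. The causes were not tested.

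Deviations from the group means correlated little between same-numbered replicates (0.0845, -0.00464 and 0.0425). Between replicates of unlike number, correlations ran from -0.0925 to 0.0613. The labels do not say whether the numbers pair the arrays, and correlations over all probe sets cannot exclude it. With the replicate block, 2455 probe sets, 4 members and 24 list genes passed, and bicarbonate transporters lower and receptors higher each gave 0. Signal near the receptor range limits Zc3h10, Car4, Car9, Car12, Car6 and Car8.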

Other observations

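Carbonic anhydrases need zinc and give up protons, so zinc carriers and the vacuolar proton pump were also listed, after the other lists had been seen. Of 27 zinc transporter and metallothionein genes measured, 3 rose, 1 fell and 23 did not pass, with a median log2 difference of -0.01. Among all genes 5.51% rose and 6.60% fell, and nothing is read from these counts. Slc39a6, a zinc importer, had 290, 294 and 323 with Zc3h10 shRNA, against 192, 171 and 176 with scramble, a log2 difference of 0.75 ± 0.09 (SE, n = 3 each; adjusted p = 0.00242). Slc30a4, a vesicular zinc exporter, rose by 0.56 (SE 0.08; adjusted p = 0.00538). Slc39a13 rose by 0.38 (adjusted p = 0.0297) and Slc39a1, a surface importer, fell by 0.50 (adjusted p = 0.0145), calls lost under 7 and 3 of 16 alternatives. Mt1, a zinc-binding metallothionein, had a log2 difference of -0.32 that missed the threshold (adjusted p = 0.0731).

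Of 24 vacuolar proton pump subunits measured, 3 fell, none rose and 21 did not pass, where 6.60% of all genes fell. The median log2 difference was -0.05. The 3 were Atp6v1b2 (-0.65 ± 0.10, adjusted p = 0.00476), Atp6v1c1 (-0.60 ± 0.10, adjusted p = 0.00809) and Atp6v1e1 (-0.44 ± 0.08, adjusted p = 0.0151), all of the cytosolic ATP-splitting part (differences ± SE). Atp6v1e1 was lost under 3 of 16 alternatives.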
